A study of Homo sapiens with 6 samples.

Results

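The genes of cholesterol and fatty acid synthesis were followed in MDA-MB-231, a human line of triple-negative breast cancer that is mesenchymal in form and widely used to study invasion. They comprised 39 listed symbols, taken as the rows of the deposited table with the same gene symbol, and all 39 were found among its 16258 genes. Migratory samples held highly motile cells isolated from microfluidic devices, and unsorted samples held the whole population of the same line, with 3 samples of 1000 cells in each group. The labels name no transgene, drug or edited gene in either group. All cells were grown in the same medium with fetal bovine serum, which itself carries lipid and cholesterol, and the labels do not say whether replicates were grown apart or whether unsorted cells had also passed through a device. Any effect of the device and of isolation therefore cannot be told apart from the group, and p-values rest on a spread between samples that may be technical.

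Cells make cholesterol and fatty acids from cytosolic acetyl-CoA. The mevalonate arm builds isoprenoid units, the squalene and sterol arm closes and trims the rings, and fatty acid synthase with its elongases and desaturases makes and modifies acyl chains. Transcription of both branches is driven by the membrane-bound SREBP factors, which the escort protein SCAP carries out of the endoplasmic reticulum when sterol is low and which INSIG proteins hold back when sterol is high.

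The comparison asked whether motile cells differ from the population they came from in these genes. The synthesis genes did not move together. ACSS1, which makes acetyl-CoA from acetate in the mitochondrial matrix, fell, and it was the 1 synthesis gene of 39 that passed an adjusted p of 0.05. Of all genes tested 0.234% passed, with 0.0443% higher and 0.19% lower in migratory cells. The ACSS1 call did not hold in edgeR or in 5 of the 6 fits that left out a library, and the 37 calls over all genes came to 1, 2 and 1 without unsorted replicate 1, 2 and 3. The SREBP gene SREBF1 and the sterol reductase gene TM7SF2 had the next largest negative log2 fold changes and did not pass. CYP51A1, ACSL4 and ELOVL5 had the largest positive ones and did not pass either.

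As a list, 20 genes had a positive and 19 a negative log2 fold change, migratory over unsorted. The median log2 fold change was 0.02, against -0.03 for all 15786 genes tested, and single genes ranged between -1.74 and 0.79. An unadjusted p under 0.05 was reached by 4 genes with higher values (7.7% of all genes tested) and 5 with lower values (10% of all), against 17.7% of all genes in either direction. DESeq2 on the recovered reads called 4 of the 39 (5.91% of all genes) and edgeR called 0 (0.133% of all genes). Migratory and unsorted libraries were fully separated in 10 of the 39 genes (25.6%), 4 higher and 6 lower in migratory cells. Over all genes tested that share was 23.8% (11.3% higher and 12.5% lower), so the synthesis genes separated the groups about as often as genes at large. All 39 genes had a mean of at least 10 normalised reads and entered the test.

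**Figure D1:**
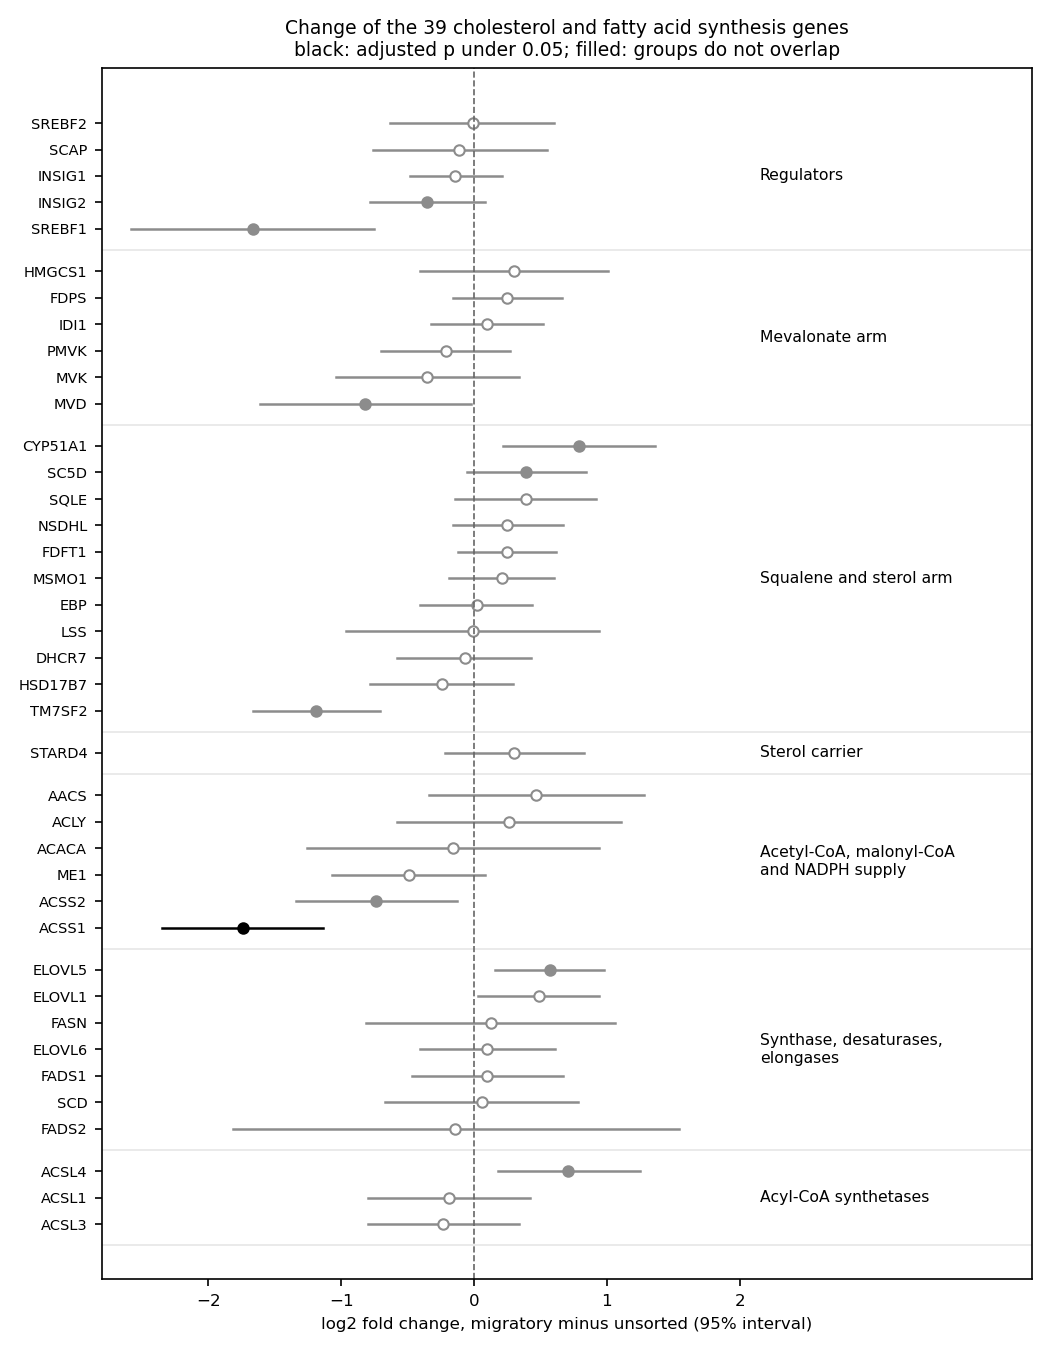
Log2 fold change of each of the 39 genes, migratory minus unsorted, with its 95% interval from limma (x axis, log2 scale), grouped by role (y axis). ACSS1 at -1.74 is the 1 gene in black, past an adjusted p of 0.05, filled points mark the 10 genes whose groups do not overlap, and most other intervals cross 0.

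Values are normalised reads, which are reads per gene divided by a size factor for the library, with no scaling for gene length. The reads counted in genes came to 27032454 to 34511537 per migratory library and 32789072 to 74227978 per unsorted library. The 6 markers of this line (VIM, CD44, AXL, FOSL1, ANXA1 and CAV1) summed to 199470 to 208235 in migratory and 153798 to 163925 in unsorted libraries. Vimentin (VIM) alone was at 17418 to 20315 in migratory and 13455 to 15851 in unsorted libraries, and the epithelial cadherin CDH1 at 0 to 20.5 and 0 to 28.3, whereas the epithelial genes KRT8 (31846 to 50660 and 54691 to 64153) and EPCAM (1512 to 2385 and 1734 to 3089) were read in every library. Of 8 adipocyte markers 1 was analysed here, PLIN4, at 53 or less in migratory and 41.1 or less in unsorted libraries. Of 8 fibroblast markers 5 were analysed here, all with lower means in migratory cells, and their summed level was 818 to 2111 in migratory and 2772 to 4183 in unsorted libraries. ADIPOQ and PLIN1 of adipocytes and DCN, PDGFRA and THY1 of fibroblasts had no values here, so their levels are not known. The part of these marker differences in the results was not tested.

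Among the regulators, SREBF1 encodes SREBP factors that act on fatty acid genes. It was at 417, 1309 and 586 normalised reads in migratory replicates 1, 2 and 3. Unsorted replicates 1, 2 and 3 were at 2655, 2601 and 1478. Every migratory library lay below every unsorted one, with migratory replicate 2 and unsorted replicate 3 closest. The group means were 771 ± 474 in migratory and 2245 ± 664 in unsorted cells (SD, n = 3 each), a log2 fold change of -1.66 (SE 0.41, 95% interval -2.58 to -0.75) with a limma adjusted p of 0.10. DESeq2 on whole reads called it, at an adjusted p of 0.0074.

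SREBF2, which encodes the SREBP factor of the cholesterol genes, was at 1283, 2185 and 1849 in migratory replicates 1 to 3, against 1352, 2277 and 1725 in unsorted replicates 1 to 3. The groups overlapped fully, and the log2 fold change was -0.01 with an interval of -0.63 to 0.60. The sign of so small a value changed when single libraries were left out. SREBF1 set against SREBF2 within each library gave log2 ratios of -1.62, -0.74 and -1.66 in migratory libraries, against 0.97, 0.19 and -0.22 in unsorted libraries. The ratios did not overlap and differed by -1.65 in the mean (two-sided exact permutation p = 0.1, the smallest that 3 against 3 samples allow, adjusted p = 0.2 over 6 gene pairs).

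SCAP was at 2261, 4873 and 2555 in migratory replicates 1 to 3 and at 3109, 3956 and 2870 in unsorted replicates 1 to 3, with a log2 fold change of -0.11. INSIG1, the INSIG gene that SREBP itself induces, was at 9206, 9926 and 9243 in migratory replicates 1 to 3 and at 10223, 9847 and 11153 in unsorted replicates 1 to 3. It varied least of the 39 genes between libraries of a group (pooled SD 0.08 on the log2 scale), and its log2 fold change was -0.14 (interval -0.48 to 0.21). INSIG2 averaged 4867 ± 889 in migratory and 6130 ± 366 in unsorted cells (SD, n = 3 each) without overlap between groups, and its limma adjusted p was 0.37. None of the 5 regulators passed in limma or edgeR, 1 had an unadjusted p under 0.05 (SREBF1, also called in DESeq2), and all 5 had lower means on the log2 scale in migratory cells.

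For the pair of SREBP genes, the 250 bases upstream of the annotated start are shown. The same stretch is shown for the 4 other genes with the most negative log2 fold changes. The sequences come from RefSeq (GRCh38.p14), whose start can differ from the GENCODE start. They are written 5′ to 3′ on the strand of the gene. By GENCODE coordinates the ACSS1 and ACSS2 windows lie wholly inside the gene, away from its start. Those of SREBF1, SREBF2, TM7SF2 and MVD span the GENCODE start. Both strands were searched for TCACNCCAC, a core form of the sterol regulatory element that SREBP binds, and for CCAAT, the box bound by the SREBP partner NF-Y. Capitals mark matches to either motif, and ATTGG is CCAAT on the other strand.
SREBF2 (chr22:41832855-41833104, plus strand): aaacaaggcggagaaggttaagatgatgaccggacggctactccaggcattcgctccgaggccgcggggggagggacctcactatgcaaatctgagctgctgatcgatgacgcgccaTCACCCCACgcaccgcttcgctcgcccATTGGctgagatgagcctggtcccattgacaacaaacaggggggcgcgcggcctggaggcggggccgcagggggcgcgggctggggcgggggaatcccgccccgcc
SREBF1 (chr17:17836987-17837236, minus strand): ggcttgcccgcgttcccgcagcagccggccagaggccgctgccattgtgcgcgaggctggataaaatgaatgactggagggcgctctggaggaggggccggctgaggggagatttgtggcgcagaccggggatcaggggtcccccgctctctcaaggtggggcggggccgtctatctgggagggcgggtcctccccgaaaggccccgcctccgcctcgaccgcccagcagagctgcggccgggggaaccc
TM7SF2 (chr11:65111622-65111871, plus strand): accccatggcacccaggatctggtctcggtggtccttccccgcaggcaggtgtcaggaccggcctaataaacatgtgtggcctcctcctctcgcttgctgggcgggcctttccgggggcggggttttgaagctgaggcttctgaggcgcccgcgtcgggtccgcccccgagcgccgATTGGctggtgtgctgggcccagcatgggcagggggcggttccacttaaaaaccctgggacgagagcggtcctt
MVD (chr16:88663092-88663341, minus strand): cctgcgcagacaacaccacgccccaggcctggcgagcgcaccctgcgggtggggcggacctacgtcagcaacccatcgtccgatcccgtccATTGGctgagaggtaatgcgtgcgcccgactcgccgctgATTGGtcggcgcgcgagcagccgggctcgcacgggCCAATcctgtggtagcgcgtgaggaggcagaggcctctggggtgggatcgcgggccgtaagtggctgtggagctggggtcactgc
ACSS2 (chr20:34874739-34874988, plus strand): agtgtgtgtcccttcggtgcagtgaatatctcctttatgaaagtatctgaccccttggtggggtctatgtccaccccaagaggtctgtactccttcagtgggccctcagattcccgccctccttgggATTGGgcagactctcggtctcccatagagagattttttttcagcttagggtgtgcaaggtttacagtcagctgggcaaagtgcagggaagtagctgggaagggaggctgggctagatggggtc
ACSS1 (chr20:25058140-25058389, minus strand): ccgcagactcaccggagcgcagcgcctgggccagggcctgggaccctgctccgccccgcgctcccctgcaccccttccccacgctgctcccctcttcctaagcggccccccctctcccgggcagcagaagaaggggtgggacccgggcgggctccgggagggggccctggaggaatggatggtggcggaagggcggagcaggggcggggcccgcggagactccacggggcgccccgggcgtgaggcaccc

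The SREBF2 window held TCACCCCAC at bases -133 to -125 before the start and ATTGG at -106 to -102. The SREBF1 window held neither motif. Only exact matches in a single window per gene were sought, so elements of other form, further away or at another start were not. The windows of several genes lie away from the GENCODE start of the gene, among them IDI1, DHCR7, ACLY, FADS1, FADS2, ACSS1 and ACSS2. Among 36 synthesis genes with a window in the table, SREBF2 was the 1 gene with the sterol element core (2.78%), against 0.906% of the 10267 windows of genes in the deposited table. CCAAT stood in 21 of the 36 windows (58.3%), against 34.8% of the 10267. It stood 3 times in the MVD window and once each in those of TM7SF2 and ACSS2, and was absent from the ACSS1 window. The Sp1 motif GGGCGG stood in 33 windows (91.7%, against 66.3%) and the E-box CACGTG in 4 (11.1%, against 8.77%). Synthesis genes with CCAAT in the window had a median log2 fold change of 0.02 over 21 genes (range -1.19 to 0.57). Those without it had -0.14 over 15 genes (range -1.74 to 0.79). The ranges overlapped widely, and the difference was not tested. FASN, FDFT1 and SQLE were not among the 36.

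**Figure D2:**
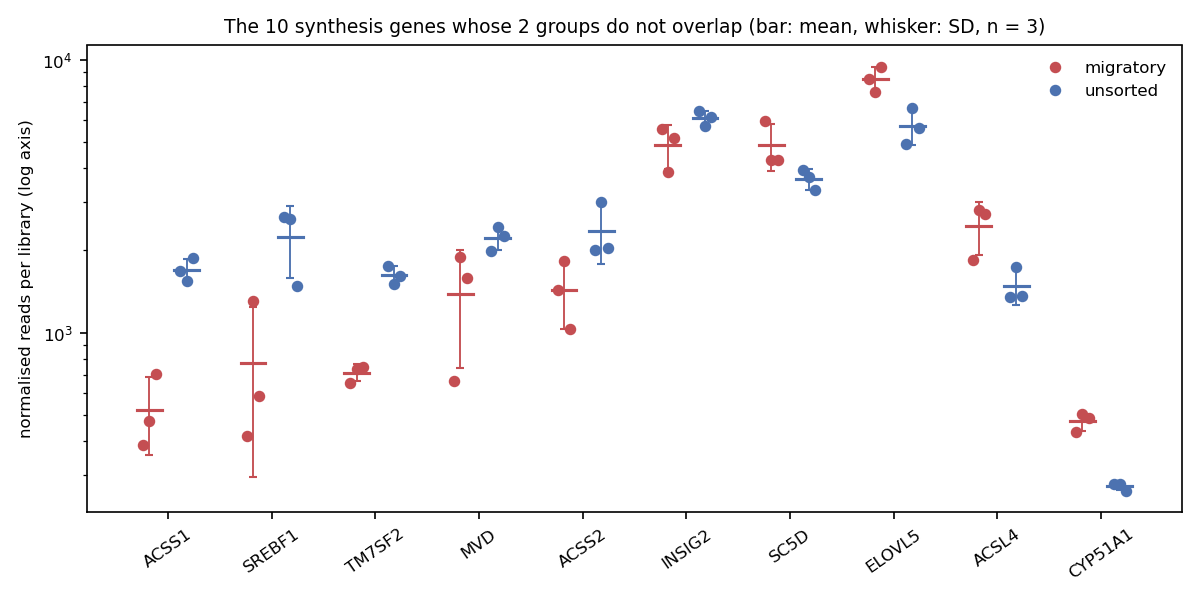
Normalised reads in each library (y axis, log scale) for the 10 genes whose groups do not overlap (x axis, ordered by log2 fold change), with migratory left of unsorted, the mean as a bar and the SD as a whisker. The 3 migratory libraries of ACSS1 sit between 386 and 708, all below the unsorted libraries at 1547 to 1871, and those of CYP51A1 sit between 433 and 504, all above 263 to 279.

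In the mevalonate arm, 3 of 6 genes had higher and 3 lower means in migratory cells. None passed in limma, edgeR or DESeq2, 1 had an unadjusted p under 0.05 (MVD), and the median log2 fold change was -0.06. HMGCS1, which makes the pathway's entry intermediate HMG-CoA, was at 773, 434 and 407 in migratory replicates 1 to 3, against 490, 342 and 435 in unsorted replicates 1 to 3. Migratory replicate 1 stood above all other libraries, and the log2 fold change was 0.30 (limma adjusted p of 0.65). An antisense gene covers 15% of the HMGCS1 exons, and reads of the pair cannot be told apart in libraries without strand.

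MVD, the decarboxylase that yields the isoprenoid unit, was at 667, 1885 and 1587 in migratory replicates 1 to 3, against 1999, 2428 and 2252 in unsorted replicates 1 to 3. The groups did not overlap, but migratory replicate 2 came close to unsorted replicate 1 and migratory replicate 1 was far below the rest. The log2 fold change was -0.82 (SE 0.36, limma adjusted p of 0.27), and it was -0.36 without migratory replicate 1. The kinases ahead of MVD also had lower means, but their groups overlapped (limma adjusted p of 0.57 for MVK and 0.63 for PMVK). MVK was at 376 ± 124 in migratory and 463 ± 34.9 in unsorted cells and PMVK at 1498 ± 278 and 1719 ± 25.1 (SD, n = 3 each). The isomerase IDI1 averaged 13210 ± 2708 in migratory and 12170 ± 890 in unsorted cells, and farnesyl diphosphate synthase (FDPS) 4530 ± 407 and 3811 ± 438. IDI1 and FDPS share 14.8% and 18.6% of their exon sequence with antisense genes, and FDPS has 8 annotated pseudogenes.

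The squalene and sterol arm held the largest opposite values of the cholesterol branch. TM7SF2, an endoplasmic reticulum sterol reductase that acts on the product of CYP51A1, was at 655, 736 and 750 in migratory replicates 1 to 3, against 1756, 1506 and 1615 in unsorted replicates 1 to 3. Values within each group were close together and the groups lay far apart. The log2 fold change was -1.19 (SE 0.21, 95% interval -1.66 to -0.71) with a limma adjusted p of 0.060, and TM7SF2 ranked 63 among all genes by p. It passed under 5 of the 16 alternative settings, DESeq2 among them at an adjusted p of 4.6e-06, and the log2 fold change stayed between -1.24 and -1.13 in all 16.

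CYP51A1, the lanosterol demethylase, was at 433, 504 and 485 in migratory replicates 1 to 3, against 279, 279 and 263 in unsorted replicates 1 to 3. The groups did not overlap, and the log2 fold change was 0.79 (SE 0.25, limma adjusted p of 0.17, DESeq2 adjusted p of 0.042). Its value is less certain than most, because 79.4% of its exon sequence also belongs to another protein-coding gene on the same strand, AC000120.2, and it has 3 annotated pseudogenes. How the authors' counting treated reads in shared exons was not stated in the sources read here.

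SQLE, squalene epoxidase, was at 2147, 2137 and 2527 in migratory replicates 1 to 3, against 1314, 2188 and 1799 in unsorted replicates 1 to 3. Unsorted replicate 2 lay among the migratory libraries, and the log2 fold change was 0.39 (limma adjusted p of 0.41). SC5D, a sterol desaturase, averaged 4855 ± 959 in migratory and 3657 ± 312 in unsorted cells (SD, n = 3 each) with no overlap, at a limma adjusted p of 0.33. Other enzymes of the arm had small positive values. Log2 fold changes were 0.25 for squalene synthase (FDFT1), 0.25 for the decarboxylating dehydrogenase NSDHL, 0.21 for the methyl oxidase MSMO1 and 0.02 for the isomerase EBP.

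Lanosterol synthase (LSS) was at -0.01 with a wide interval of -0.96 to 0.94, the ketoreductase HSD17B7 at -0.24 and the late reductase DHCR7 at -0.07. In all, 7 of the 11 genes of the arm had positive and 4 negative log2 fold changes, with a median of 0.21. None passed in limma or edgeR, and 2 had an unadjusted p under 0.05, CYP51A1 and TM7SF2. The sterol carrier gene STARD4, which moves cholesterol between membranes, averaged 2462 ± 317 in migratory and 2026 ± 521 in unsorted cells (SD, n = 3 each), with overlapping groups.

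The genes that supply acetyl-CoA held the 1 call. ACSS1 (chr20:25006230-25058980, minus strand, GENCODE release 29 on GRCh38) was at 386, 474 and 708 in migratory replicates 1 to 3, against 1689, 1547 and 1871 in unsorted replicates 1 to 3. The highest migratory library was below the lowest unsorted one. ACSS1 fell to 523 ± 166 in migratory cells, against 1702 ± 162 in unsorted cells (SD, n = 3 each), a log2 fold change of -1.74 (SE 0.27, 95% interval -2.35 to -1.14) with a limma adjusted p of 0.044. It ranked 29 among all genes by p, and none of its exon sequence overlaps another annotated gene. The call did not hold in edgeR on whole reads (adjusted p of 0.061), nor without migratory replicate 1 (0.060) or 2 (0.096) or without unsorted replicate 1 (0.17), 2 (0.082) or 3 (0.21), while the log2 fold change stayed between -1.99 and -1.55.

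ACSS2, its counterpart in cytosol and nucleus, was at 1428, 1828 and 1028 in migratory replicates 1 to 3, against 2015, 3021 and 2044 in unsorted replicates 1 to 3. The groups did not overlap, and the log2 fold change was -0.74 (SE 0.27, limma adjusted p of 0.21). Both acetate-using enzymes thus had lower values in every migratory library, and passing in ACSS1 does not show that the pair differ. The log2 ratio of ACSS1 to ACSS2 within a library was -1.88, -1.95 and -0.54 in migratory libraries, against -0.25, -0.96 and -0.13 in unsorted libraries. These ratios overlapped (difference -1.01, two-sided exact permutation p = 0.2, adjusted p = 0.3 over 6 pairs).

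ACLY, which releases cytosolic acetyl-CoA from citrate, averaged 7834 ± 3752 in migratory and 6407 ± 2735 in unsorted cells (SD, n = 3 each), and its spread was wider than the difference. AACS, which activates acetoacetate, averaged 1591 ± 378 in migratory and 1229 ± 633 in unsorted cells. The NADPH-producing malic enzyme ME1 averaged 4837 ± 1624 and 6585 ± 880, a log2 fold change of -0.49 (limma adjusted p of 0.35). ACACA, the carboxylase that commits acetyl-CoA to fatty acids, rested on 31 to 110 reads per library and averaged 69.1 ± 29.3 in migratory and 73.2 ± 17.0 in unsorted cells, a log2 fold change of -0.16 with a wide interval (-1.26 to 0.94).

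Fatty acid synthase (FASN) was at 632, 936 and 263 in migratory replicates 1 to 3, against 500, 529 and 453 in unsorted replicates 1 to 3. The migratory libraries lay on both sides of the unsorted ones, and the log2 fold change was 0.13 (interval -0.81 to 1.06). The stearoyl-CoA desaturase SCD was at 5109, 6609 and 4856 in migratory replicates 1 to 3, against 3914, 9457 and 3940 in unsorted replicates 1 to 3. Unsorted replicate 2 was above every other library, and the sign of the log2 fold change, 0.06, turned in edgeR and DESeq2 on whole reads and with single libraries left out. FADS2, a front-end desaturase, varied most of the 39 genes (pooled SD 1.38 on the log2 scale), at 476, 763 and 2685 in migratory replicates 1 to 3 and 456, 3356 and 847 in unsorted replicates 1 to 3. FADS1, the desaturase that acts after it, averaged 6243 ± 1531 in migratory and 5835 ± 1443 in unsorted cells (SD, n = 3 each).

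The elongase ELOVL5, which extends polyunsaturated chains, was at 8505, 7596 and 9429 in migratory replicates 1 to 3, against 4924, 6642 and 5637 in unsorted replicates 1 to 3. The groups did not overlap, and the log2 fold change was 0.57 (SE 0.18, limma adjusted p of 0.16). ELOVL1, which makes very long saturated and monounsaturated chains, averaged 10690 ± 1687 in migratory and 7687 ± 1652 in unsorted cells (SD, n = 3 each, log2 fold change 0.49, limma adjusted p of 0.26), and its groups overlapped by a single library. ELOVL6, which extends palmitate, averaged 2356 ± 372 and 2212 ± 448. None of the 7 genes of the synthase, desaturases and elongases passed in limma, edgeR or DESeq2, and 2 had an unadjusted p under 0.05 (ELOVL1 and ELOVL5). Of the 7, 6 had positive log2 fold changes, and the median was 0.10.

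ACSL4, the acyl-CoA synthetase that prefers arachidonate, was at 1840, 2818 and 2728 in migratory replicates 1 to 3, against 1351, 1744 and 1359 in unsorted replicates 1 to 3. The groups did not overlap, with unsorted replicate 2 just below migratory replicate 1, and the log2 fold change was 0.71 (SE 0.24, limma adjusted p of 0.18). ACSL3 and ACSL1, which activate long-chain fatty acids more broadly, had log2 fold changes of -0.23 and -0.19. ACSL4 over ACSL3 within a library was -0.80, -0.69 and -1.10 on the log2 scale in migratory libraries, against -1.76, -1.92 and -1.75 in unsorted libraries, with no overlap (difference 0.94, two-sided exact permutation p = 0.1, adjusted p = 0.2 over 6 pairs). The ratio of ELOVL5 to ELOVL6 differed by 0.48 (two-sided exact permutation p = 0.1, adjusted p = 0.2). ELOVL1, with a log2 fold change of 0.49 against 0.57 for ELOVL5, was not set in a pair. The ratios of INSIG2 to INSIG1 and FADS2 to FADS1 overlapped between groups (differences of -0.21 and -0.23, exact permutation p = 0.5 each).

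**Figure D3:**
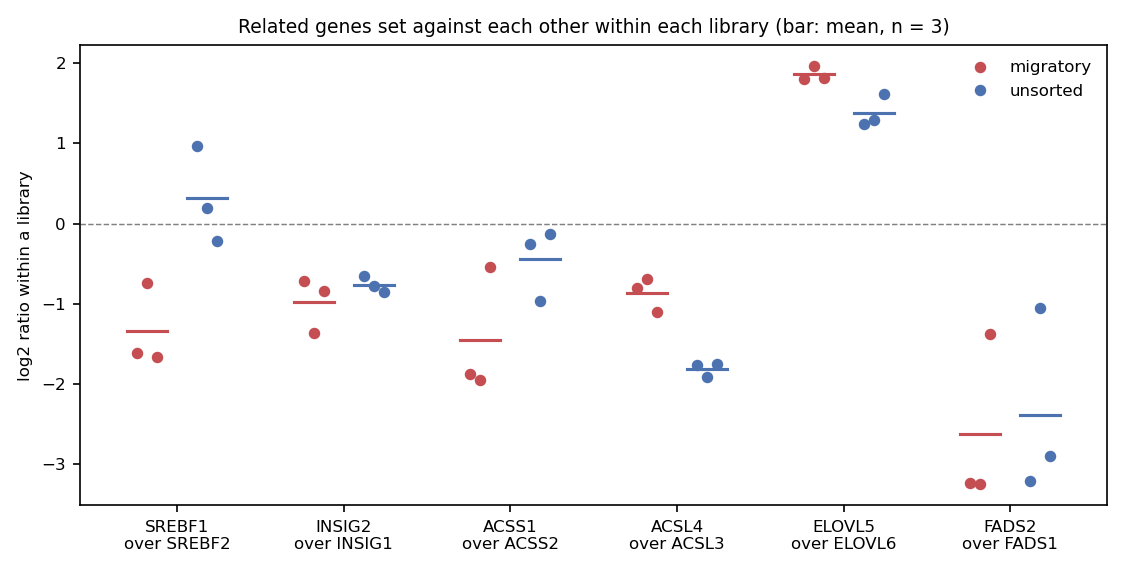
Log2 ratio of related genes within each library (y axis), with migratory left of unsorted and the mean as a bar. The ratios of SREBF1 to SREBF2, ACSL4 to ACSL3 and ELOVL5 to ELOVL6 do not overlap between groups, and the other 3 pairs do.

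Much of the variation in these genes lay between libraries of a group. Unsorted replicate 2, the most deeply sequenced library, was the highest of the 3 unsorted libraries in 26 of 39 synthesis genes (66.7%), against 36.6% of all genes tested. AACS, ACLY, LSS, SCD and FADS2 were among these 26. The median of the synthesis genes in that library lay 0.18 above the unsorted mean on the log2 scale, while the median of all genes lay at -0.00. Migratory replicate 1 was the lowest migratory library in 20 genes (51.3%, against 38.5% of all genes), and migratory replicate 2 had the highest median of its group, 0.22 above the unsorted mean. The part of depth in this was not tested. Without unsorted replicate 2 the median log2 fold change of the list was 0.17, and the median pooled SD was 0.32 for the synthesis genes and 0.40 for all genes.

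**Figure D4:**
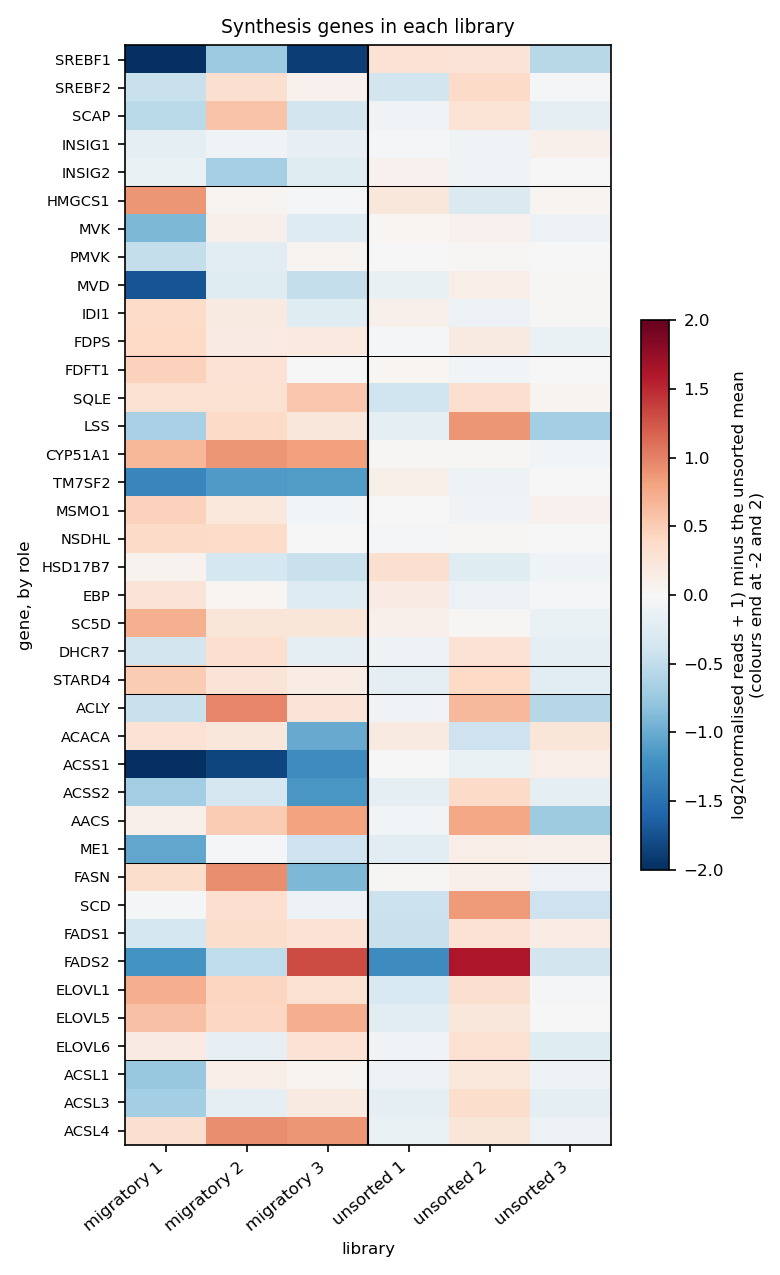
Log2(normalised reads + 1) of each gene in each library minus the mean of the unsorted libraries, with colours ending at -2 and 2, genes by role down the page and libraries across. ACSS1, TM7SF2 and SREBF1 are low in the 3 migratory libraries, and FADS2 and SCD stand high in unsorted replicate 2.

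Per length of merged exons, MSMO1 was the most abundant of the 39 genes, with mean levels of 4726 normalised reads per kb in migratory and 4056 in unsorted cells. EBP (3372 and 3312), ELOVL1 (4259 and 3063), INSIG1 (2591 and 2851), IDI1 (3044 and 2804) and FDFT1 (2790 and 2327) came next, and their order among themselves changed between the groups. ACACA had the lowest level per kb in both groups (5.31 in migratory and 5.63 in unsorted cells). MVK (58.0 in migratory and 71.5 in unsorted cells) and FASN (65.2 and 52.8) were among the 4 lowest in both. ACSS1 ranked 37 in migratory cells, at 60.1 per kb, and 31 in unsorted cells, at 196, and SREBF1 ranked 34 at 96.0 and 27 at 280. Exon lengths were merged over all annotated transcripts, so a gene that uses few of its exons reads low on this scale.

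**Figure D5:**
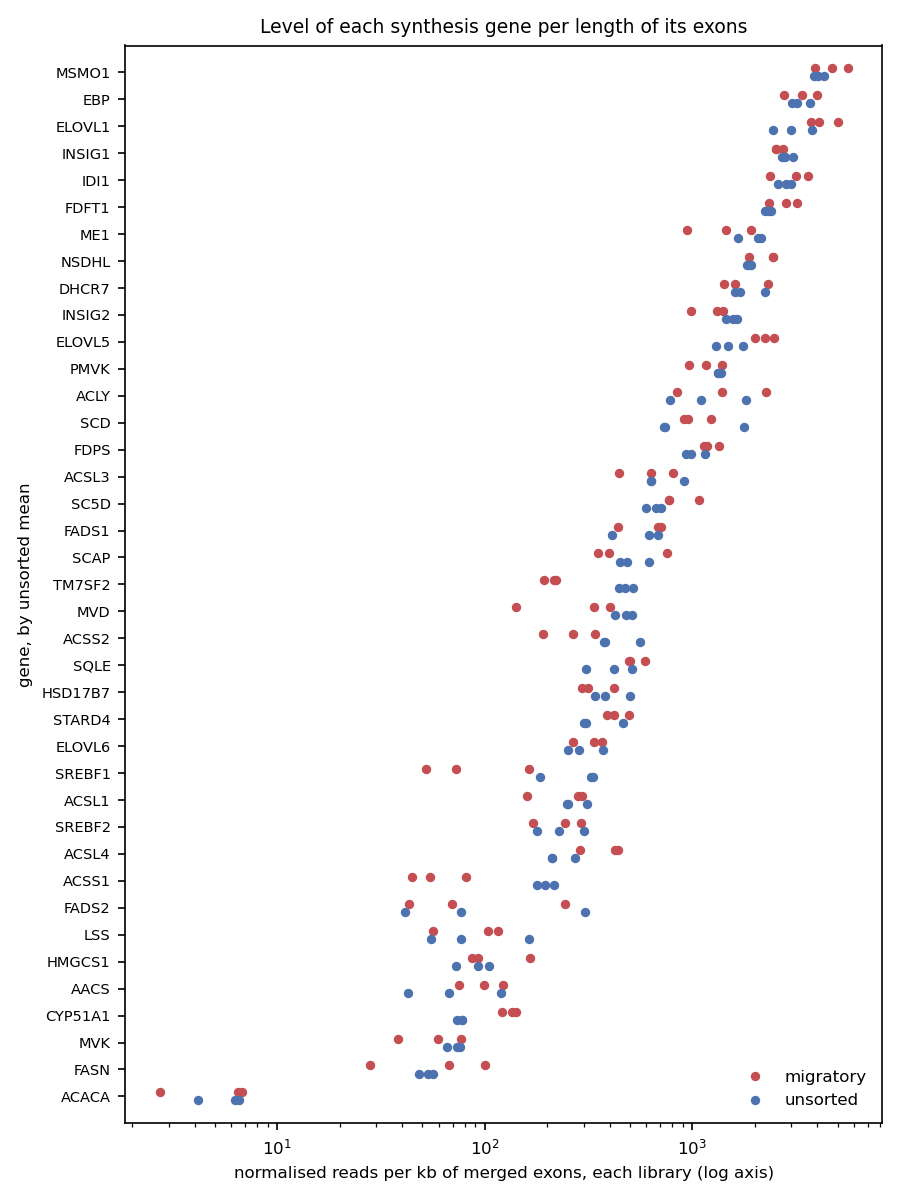
Normalised reads per kb of merged exons in each library (x axis, log scale) for the 39 genes, ordered down the page by their unsorted mean. Levels run from about 5.63 per kb for ACACA to 4056 for MSMO1 in unsorted cells, and the migratory points of ACSS1, TM7SF2 and SREBF1 lie left of their unsorted points.

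Other genes of lipid metabolism were read from 6 lists, and none passed in limma or edgeR over all genes. An unadjusted p under 0.05 was reached by 2 higher and 4 lower of the 13 genes of sterol uptake, storage and efflux, against 7.7% and 10% of all genes. DESeq2 called 1 higher (SOAT1) and 4 lower (ABCA1, ABCG1, MYLIP and NR1H3), against 5.91% of all genes in either direction. In that list the groups did not overlap for 7 of 13 genes (53.8%, against 23.8% of all genes). ABCG1, a cholesterol exporter, was at 60.4, 100 and 286 in migratory replicates 1 to 3 and at 614, 1004 and 612 in unsorted replicates 1 to 3 (log2 fold change -2.58, limma adjusted p of 0.075). NR1H3, which encodes the oxysterol receptor LXR alpha, averaged 422 ± 120 in migratory and 1021 ± 209 in unsorted cells, and MYLIP, a ubiquitin ligase, 198 ± 115 and 933 ± 667 (SD, n = 3 each, limma adjusted p of 0.093 and 0.12). LXR is known to induce ABCG1, MYLIP, ABCA1 and SREBF1, among other genes. Those named here all had lower means in migratory cells. LXR targets were not read as a list, so these values do not describe its targets as a set. ABCA1, named after its value was seen, averaged 114 ± 26.8 in migratory and 285 ± 114 in unsorted cells. Its groups did not overlap, at a limma adjusted p of 0.15. NR1H2, the other LXR gene and likewise named late, averaged 6638 ± 2247 in migratory and 8935 ± 1558 in unsorted cells. Its groups overlapped (limma adjusted p of 0.38). The part of LXR in these values was not tested. SOAT1, which esterifies cholesterol for storage, had the higher mean in migratory cells, at 12359 ± 1136 against 6912 ± 1347 (SD, n = 3 each, limma adjusted p of 0.081).

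Among other sterol and isoprenoid genes, TMEM97, a sterol-responsive membrane protein, averaged 1990 ± 228 in migratory and 996 ± 177 in unsorted cells (SD, n = 3 each, limma adjusted p of 0.086). IDH1, a cytosolic source of NADPH, and GGPS1, which makes geranylgeranyl diphosphate, had log2 fold changes of -0.49 and -0.38. The median of this list was -0.02 over 10 genes. TMEM97 with a higher and IDH1 with a lower value had an unadjusted p under 0.05 (7.7% and 10% of all genes). DESeq2 called TMEM97 (5.91% of all genes in either direction). In the list of SREBP processing and degradation, with a median of 0.16 over 8 genes, the ubiquitin-conjugating enzyme UBE2G2 had a log2 fold change of 0.49 at an unadjusted p under 0.05 (limma adjusted p of 0.25). C12orf49 and the protease gene MBTPS1 were at 0.29 and -0.23.

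Genes of fatty acid oxidation had a median of -0.22 over 17 genes tested, with 13 negative and 4 positive log2 fold changes, against 8192 negative of all 15786. An unadjusted p under 0.05 was reached by 5 of the 17 with lower values (10% of all genes), and DESeq2 called 4, CPT2, ACADS, ACADVL and ETFB (5.91% of all genes). CPT2, the inner carnitine palmitoyltransferase, averaged 234 ± 19.0 in migratory and 581 ± 191 in unsorted cells, and ACADVL, the very long chain acyl-CoA dehydrogenase, 10904 ± 4428 and 20174 ± 2021 (SD, n = 3 each, limma adjusted p of 0.11 and 0.13). ACADS and ETFB, which pass on electrons from acyl chains, had log2 fold changes of -1.10 and -0.87. In the list of glycerolipid synthesis and lipid droplets, with a median of -0.13 over 15 genes, MGLL and GPAM had values of 0.74 and 1.13, and DGAT1 and PNPLA2 of -0.54 and -0.57. All 4 had an unadjusted p under 0.05, which 7.7% of all genes reached with higher and 10% with lower values. DESeq2 called MGLL (5.91% of all genes). Of 17 other fatty acid synthesis and elongation genes the median was 0.03. The glucose-responsive factor MLXIPL was at 10.0 ± 3.07 in migratory and 81.3 ± 18.8 in unsorted cells (SD, n = 3 each, log2 fold change -2.91, limma adjusted p of 0.071). MLXIPL and ELOVL3 had an unadjusted p under 0.05 with lower values (10% of all genes), and DESeq2 called MLXIPL (5.91% of all genes). ELOVL3, HACD2 and SLC25A1 had log2 fold changes of -2.86, 0.49 and -0.30.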

How the data were processed

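The members and gene lists were chosen with earlier results of these data known. Per the labels' protocols, RNA of 1000 cells was amplified with a SMART-seq kit, tagmented with Nextera XT and sequenced paired-end on 4 lanes. This chemistry carries no strand and no molecular identifiers. The deposited values are a signal, reads per gene divided by a size factor per sample. The tools named are HISAT2, HTSeq and DESeq2, and the builds hg38 and GRCh38.p7, per the submitters' processing notes, with versions, settings and annotation not given in the sources used here. All values (100%) were whole reads within 0.01 read once divided by what 1 read was worth.

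The main test was limma 3.58.1 (R 4.3.3) with an intensity trend on log2(value + 1), which understates changes of low genes. It took 15786 genes with a mean of at least 10, with two-sided Benjamini-Hochberg adjustment over all of them at 0.05. Alternatives included edgeR 4.0.16 (quasi-likelihood, TMM) and DESeq2 1.42.0 on the recovered reads, and fits were tested on simulated data. Every member is named, with values in every sample for those past the threshold or without overlap at an unadjusted p under 0.05, and for SREBF1, SREBF2, SCAP, INSIG1, HMGCS1, SQLE, FASN, SCD, ACSS1 and ACSS2. FADS2 was added after its values were seen. Up to 4 genes per further list were named by smallest p. Some genes that this rule would name are not reported here. Coordinates and exon overlaps come from GENCODE release 29 on GRCh38, and no coordinates were converted.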

Additional observations from a re-analysis of the deposited data

How the results depend on the processing

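The labels number replicates 1 to 3 in both groups without saying that a number marks a shared culture. Deviations from the group means correlated at 0.117, 0.108 and 0.0369 between same-numbered samples, and at -0.162 to 0.0723 between differently numbered ones. Migratory replicates 1 and 2 correlated best with the unsorted replicate of the same number, and migratory replicate 3 with unsorted replicate 2. Correlations this small do not settle whether the numbers pair samples. The main fit left the replicate block out because the labels name no pairing. With the replicate block 114 genes passed in place of 37, and ACSS1 remained the 1 synthesis gene called, at an adjusted p of 0.026.

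The count of genes called over all genes was 97 with a pseudocount of 10, 78 with a filter at a mean of 50, 21 in edgeR, 933 in DESeq2, 85 under upper-quartile scaling and 507 with array weights, and between 1 (without unsorted replicate 1 or 3) and 44 (without migratory replicate 1) with single libraries left out. Higher calls were 18.9% of the total in the main fit, 39% in DESeq2 and 39.1% with array weights. Of the synthesis genes 2 were called (ACSS1 and TM7SF2) with a pseudocount of 10, with the filter at 50 and under upper-quartile scaling, 3 with array weights (ACSL4 added), 4 in DESeq2 (ACSS1, TM7SF2, SREBF1 and CYP51A1) and 0 in edgeR. With single libraries left out 0 to 1 were called, and ACSS1 alone without migratory replicate 3. At an unadjusted p under 0.05 limma had 9 synthesis genes, 4 higher and 5 lower. The list median was 0.015 in the main fit and -0.094 to 0.17 with single libraries left out, highest without unsorted replicate 2.

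The sign held for 24 of 39 genes in all 16 alternatives. The other 15 had main log2 fold changes within 0.26 of 0. With array weights SREBF2 was at 0.18, SCAP at 0.10, LSS at 0.42, EBP at -0.062, DHCR7 at 0.095, FADS2 at 0.48 and ACSL1 at 0.011. EBP was at -0.018 under upper-quartile scaling, and SCD at -0.081 in edgeR and -0.061 in DESeq2. With single libraries left out the ranges were -0.20 to 0.20 for SREBF2, -0.45 to 0.11 for SCAP, -0.031 to 0.27 for IDI1, -0.35 to 0.43 for LSS, -0.11 to 0.15 for EBP, -0.28 to 0.074 for DHCR7, -0.094 to 0.62 for ACLY, -0.39 to 0.26 for ACACA, -0.27 to 0.64 for FASN, -0.16 to 0.48 for SCD, -0.12 to 0.32 for FADS1, -0.85 to 0.67 for FADS2, -0.025 to 0.25 for ELOVL6, -0.35 to 0.10 for ACSL1 and -0.43 to 0.0012 for ACSL3. The cause of these changes was not tested. ACACA rested on the fewest reads of the 39 genes, 31 to 110 per library, and the part of depth in its spread was not tested.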
